A study of Mus musculus with 21 samples.

Results

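Neural stem cells grown from mouse forebrain (NS, 3 arrays) were set against mouse embryonic stem cells (ES, 3 arrays). The arrays were chosen by their state label, and they make up 6 of the 21 arrays of the series. All genes with a usable probe were compared. Messenger RNA was measured on Illumina MouseWG-6 V2 bead arrays, on which each probe is carried by many beads and a brighter signal means more of its transcript. Both lines served the study as controls for fibroblasts that were converted directly into neural stem cells. NS were primary cells of mouse forebrain, with no transgene named in the labels. ES were labelled as embryonic stem cells, while their source label repeats the Oct4-GiP mouse embryonic fibroblasts, so the name of the ES line is not given in the sources used here. Oct4-GiP is a reporter in which regulatory sequence of the pluripotency gene Oct4 (Pou5f1) drives a green fluorescent protein. Strain, age, passage and culture medium are not given in the sources used here. By the design text the repeat arrays are technical, so every p-value measures the spread between arrays alone, and nothing shows the spread between cultures.

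Naive mouse ES cells are held in pluripotency by a network of transcription factors built around Pou5f1, Sox2 and Nanog. Esrrb, Klf factors and Tfcp2l1 belong to it, and LIF acting through Stat3 keeps Tfcp2l1 active. Neural stem cells in culture resemble radial glia: they express Sox2 as well, together with Sox9, nuclear factor I proteins, nestin and glial transporters, and they are usually kept dividing by EGF and FGF2. Sox2 pairs with Pou5f1 on DNA in ES cells and with POU class 3 proteins in neural progenitors.

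The labels were first set against markers of the cell types that the cultures could hold, with a probe taken as well above background on an array at a detection p-value under 0.01. All 7 ES markers were well above background on all 3 ES arrays. Esrrb and Dppa5a were so on all 3 NS arrays as well, but their summed normalised intensity with the other ES markers was 114 to 134 in NS, against 68144 to 69333 in ES. Of 7 neural stem markers, Nes, Fabp7, Olig2, Olig1 and Slc1a3 were well above background on all 3 NS arrays, while Sox1 and Pax6, transcription factors of neuroepithelium, were so on no array of either line. Their sum was 55861 to 59515 in NS, against 225 to 264 in ES. The probes of Gfap, Aqp4 and S100b (astrocytes), of Mbp, Mog and Sox10 (oligodendrocytes) and of Aif1, Csf1r, Cx3cr1 and Tyrobp (microglia) were well above background on at most 2 arrays of a line. Of the 8 fibroblast markers, which would show feeder cells, Prrx1 was detected on all 3 NS arrays and Thy1 on all 3 ES arrays, and Col1a1, Col3a1, Lum, Postn and Twist2 on no array of either line. Their sum was 116 to 130 in NS, against 232 to 283 in ES. Fewer cells of a type and less RNA per cell cannot be told apart in such bulk samples.

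The promoters of 2 genes called lower in NS and 1 called higher are shown because they hold short sequences that POU and SOX proteins are known to recognise. Each runs from 250 bases before the annotated start to 50 after it (RefSeq, GRCm38.p6), 5′ to 3′ on the strand of the gene, with the motif in capitals. Nanog lies at chr6:122707239-122707538 on the plus strand and holds, in 1 of 2 annotated windows, a composite POU and SOX element starting 74 bases before the start. Zfp42 lies at chr8:43306960-43307259 on the minus strand and holds the octamer of POU proteins 186 bases before the start. Rfx4 lies at chr10:84755798-84756097 on the plus strand and holds, also in 1 of 2 windows, a SOX element 22 bases before the start.
Nanog: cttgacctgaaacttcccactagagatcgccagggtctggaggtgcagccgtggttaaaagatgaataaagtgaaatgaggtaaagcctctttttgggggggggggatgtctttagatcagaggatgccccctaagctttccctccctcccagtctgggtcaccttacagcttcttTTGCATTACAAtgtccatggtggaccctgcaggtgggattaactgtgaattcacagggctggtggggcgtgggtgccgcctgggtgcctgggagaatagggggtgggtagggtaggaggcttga
Zfp42: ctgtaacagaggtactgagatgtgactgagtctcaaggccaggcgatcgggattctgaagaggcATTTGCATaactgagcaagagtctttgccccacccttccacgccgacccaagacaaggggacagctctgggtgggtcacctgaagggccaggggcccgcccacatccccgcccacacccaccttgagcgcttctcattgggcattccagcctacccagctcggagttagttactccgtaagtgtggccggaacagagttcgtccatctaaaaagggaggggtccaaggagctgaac
Rfx4: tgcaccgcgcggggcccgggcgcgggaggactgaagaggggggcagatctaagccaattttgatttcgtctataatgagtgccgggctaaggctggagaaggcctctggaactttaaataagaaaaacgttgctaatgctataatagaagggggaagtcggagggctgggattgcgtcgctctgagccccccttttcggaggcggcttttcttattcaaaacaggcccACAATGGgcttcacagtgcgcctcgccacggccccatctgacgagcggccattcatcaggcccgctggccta

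These elements were searched on both strands: the composite as the capitals of Nanog with the base between TTGCAT and ACAA left free, the octamer as ATTTGCAT and the SOX element as ACAATGG. The letters TTGCAT also end the octamer and ACAA also open the SOX element, so matches can overlap. A promoter window was found for 8424 of the 10449 genes tested. Shares here are of genes with a window. The composite was in 2 of 1348 genes called higher in NS (0.15%), 1 of 1219 called lower (0.08%) and 6 of 8424 tested (0.07%). For the octamer these shares were 2.15%, 1.39% and 1.66%, and for the SOX element 2.97%, 2.63% and 2.46%. Of 40 pluripotency genes tested, 25 had a window; 1 held the composite, 1 the octamer and 2 the SOX element, so these letters mark few of them in so short a stretch. The element CCGGAAGT of ETS proteins was in 5.56% of genes called higher, 5.91% of those called lower, 8.93% of those tested and 10.33% of those not called. The CpG dinucleotides of a window had a median of 22 per gene among genes called higher in NS, 19 among those called lower and 22 among all tested. Genes called lower and detected in ES only had a median of 11, and genes called higher and detected in NS only had 19. These shares are descriptions of sequence, and no site was tested.

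The lines differed across a large part of the transcriptome. Of 10449 genes tested, 3319 (31.8%) were called different by more than 2-fold (limma treat, Benjamini-Hochberg adjusted p under 0.05), 1731 (16.6%) higher in NS and 1588 (15.2%) lower. Of these, 982 higher and 797 lower genes were well above background on all 6 arrays, 607 were detected in NS only and 684 in ES only, and the rest were detected on part of the arrays of a line. A gene entered the test when it was detected on every array of at least 1 of the 6 lines. A gene that entered through NS or ES alone was selected for being bright in that line, which favours a difference. Of 791 genes detected on all NS arrays and on no ES array, 607 were called higher. Of 870 detected the other way, 684 were called lower. Counts that include such genes, and p-values given for them, are descriptions. Where a line was at background, the fold is given as "at least" a value against the dimmest detected probes of those arrays. Such a bound can lie under 2-fold for a called gene, because the test used values below that level. A number in brackets after a gene that was not called is its log2 difference, NS minus ES. Within NS the arrays correlated at 0.9952 or more across genes and within ES at 0.995 or more, while the NS and ES means correlated at 0.746. All NS arrays lay on 1 slide and all ES arrays on another, so no within-slide value of the contrast exists. With slide as a block, 2851 genes were called, 1524 higher and 1327 lower, and 2810 of the 3319 calls were kept. The NS and ES slides were linked only by the induced neural stem cell clone iNS5. Of its arrays, only iNS5_1 lay on the NS slide and the others lay on the ES slide.

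**Figure D1:**
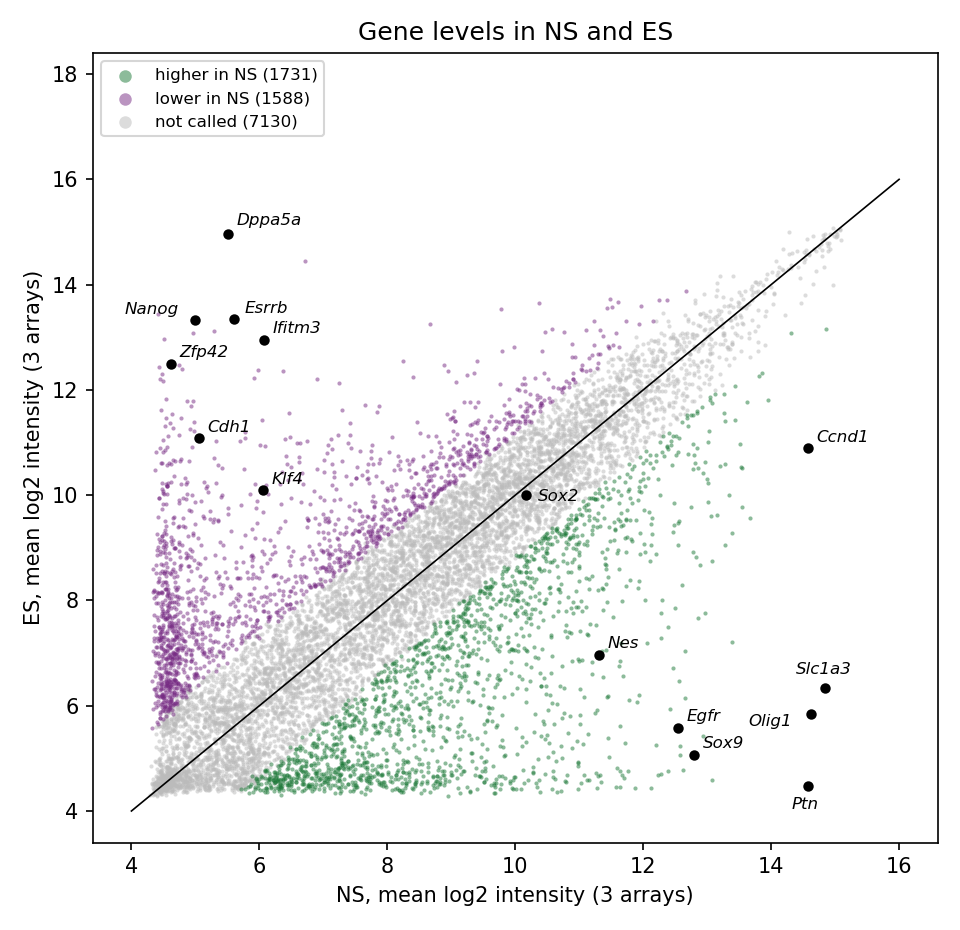
Mean log2 intensity of each of 10449 genes in NS (x axis, 3 arrays) and ES (y axis, 3 arrays), with genes called higher in NS in green, called lower in purple and not called in grey. The line marks equal levels; Olig1, Slc1a3 and Ptn lie far to its right, Dppa5a, Nanog and Esrrb far above it, and Sox2 near it.

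The pluripotency transcription factors were lower in NS with few exceptions. Of 23 listed, 18 were tested; 0 were called higher, 15 lower and 3 were not called, with a median log2 difference of -4.88 (-4.66 with bounds, that is, with lines at background set to the level used for the bound), against -0.02 over all genes tested. Nanog, the homeodomain factor of the naive epiblast, had log2 intensities of 5.43, 4.64 and 4.92 on the NS arrays, against 13.34, 13.27 and 13.37 on the ES arrays. It was detected on no NS array, and its difference was -8.33 ± 0.2 SE (at least 239.6-fold lower, limma adjusted p = 2e-17). Nanog entered the test through ES alone, so this p-value is a description. Pou5f1, the POU factor that pairs with Sox2, had 5.39, 5.55 and 4.93 on the NS arrays, against 13.15, 13.12 and 13.09 on the ES arrays. Of the NS arrays 1 was detected, and the ES arrays stood far above all NS arrays (-7.83 ± 0.25 SE, at least 203-fold lower, limma adjusted p = 3.3e-15). Tfcp2l1, a factor downstream of LIF and Stat3, had 4.39, 4.40 and 4.44 on the NS arrays, against 13.48, 13.40 and 13.44 on the ES arrays, at least 259-fold lower. Esrrb, an orphan nuclear receptor, had 5.62, 5.66 and 5.51 on the NS arrays, against 13.26, 13.37 and 13.38 on the ES arrays, and was detected on all 6 (214-fold lower, limma adjusted p = 2.4e-21).

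The Klf factors kept a measurable level in NS. Klf2 had 5.95, 6.07 and 5.94 on the NS arrays, against 12.38, 12.43 and 12.30 on the ES arrays (83.5-fold lower). Klf5 was 29.4-fold lower and Klf4 was 16.4-fold lower, again with all 6 arrays detected and no overlap between the lines. Zfp42, a zinc finger protein used as an ES marker, was at least 135-fold lower, Sall4 at least 125-fold, and Tbx3 at least 36.3-fold, none of them detected on an NS array. The nuclear receptor gene Nr5a2 was at least 21.7-fold lower, with 1 NS array detected. Zscan10, Prdm14 and Utf1 were at least 15.2-fold, at least 5.81-fold and at least 4.78-fold lower. Mybl2 was 7.81-fold lower; this cell cycle factor remained bright in NS at 9.36, 9.34 and 9.37, against 12.29, 12.38 and 12.30 in ES.

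Sox2, Gbx2 and Zfp281 were the pluripotency factors that were not called. Sox2 had 10.12, 10.24 and 10.13 on the NS arrays, against 10.13, 9.98 and 9.89 on the ES arrays, and the ranges overlapped: the highest ES array lay within the NS range. Its difference was 0.16 (95% interval -0.03 to 0.35), which lies inside the 2-fold limits of the test. Gbx2, a homeobox gene of naive pluripotency and of the midbrain-hindbrain boundary, had 9.79, 9.75 and 9.65 on the NS arrays, against 9.22, 9.20 and 9.18 on the ES arrays. The arrays of the lines did not overlap, but the difference of 0.54 ± 0.076 SE was under 2-fold. Zfp281, a zinc finger factor, differed by -0.48 ± 0.09 SE.

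**Figure D2:**
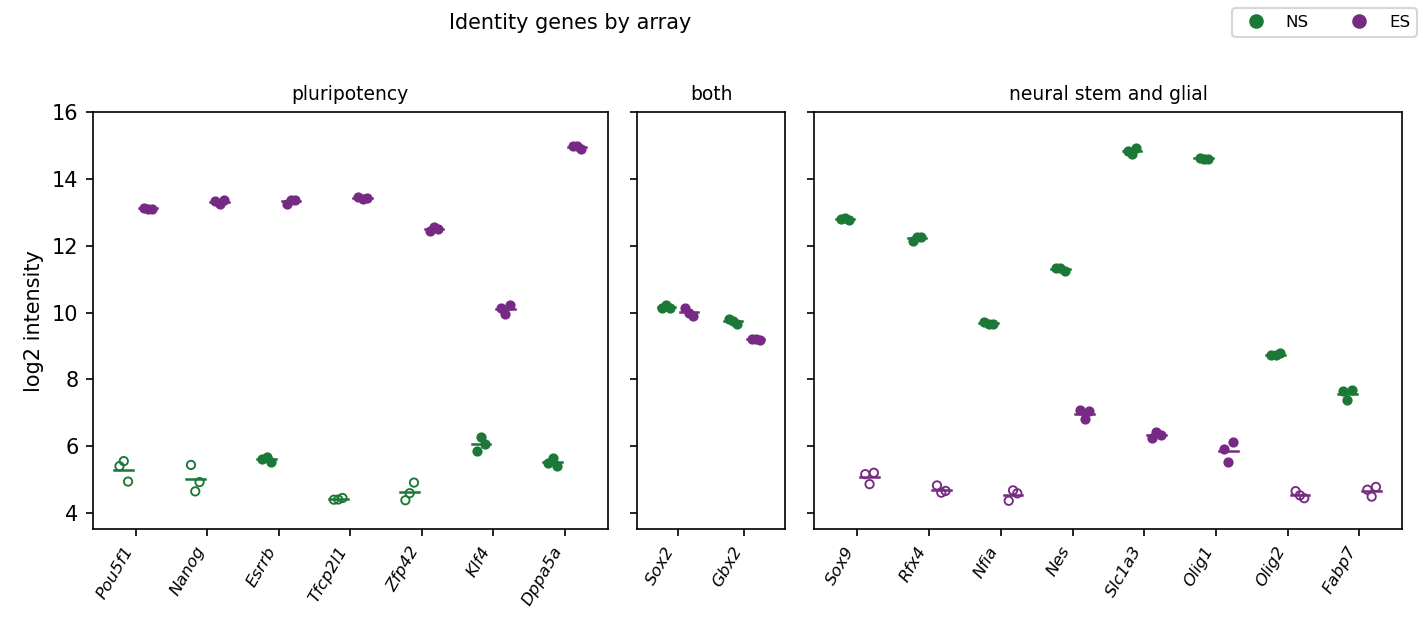
Log2 intensity of identity genes on each NS array (green) and ES array (purple), with bars at the means; filled points mark lines detected on all 3 arrays and open points lines detected on fewer. Pluripotency genes other than Sox2 and Gbx2 are high in ES, the lines differ by under 2-fold in Sox2 and Gbx2, and neural stem and glial genes are high in NS.

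The wider set of pluripotency effectors and markers followed the factors: of 26 listed, 22 were tested, and 0 were called higher and 22 lower (median -4.78, or -4.32 with bounds). Dppa5a, an RNA-binding protein of pluripotent and germ cells, had 5.49, 5.63 and 5.41 on the NS arrays, against 14.98, 15.003 and 14.92 on the ES arrays, 703-fold lower with all 6 arrays detected. Detected in ES only, Ooep, a gene of the oocyte and early embryo, was at least 187-fold lower, Fbxo15 at least 133-fold and Dppa4 at least 110.4-fold. The Nodal arm was part of the set: Nodal, the ligand, was at least 37.5-fold lower, its coreceptor gene Tdgf1 at least 27.1-fold, the antagonist genes Lefty1 and Lefty2 at least 4.95-fold and at least 6.33-fold, and Gdf3 at least 43.4-fold. Slc2a3, a glucose transporter, stayed detected in NS at 10.43, 10.40 and 10.27, against 13.64, 13.65 and 13.68 in ES (9.78-fold lower). Alpl, the phosphatase behind a common ES stain, was 14.8-fold lower. Tcl1, a coactivator of Akt kinases, was at least 28.4-fold lower, L1td1, an RNA-binding protein, at least 27.7-fold, the Ras-like gene Eras at least 8.24-fold and Dppa2 at least 2.98-fold, all detected in ES only. Mkrn1, a ubiquitin ligase, and Rif1, a replication timing protein, were measured on all 6 arrays and were 5.04-fold and 3.29-fold lower.

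Genes of the LIN28 axis, which holds back let-7 microRNAs in early cells, were lower in 6 of 7 tested cases and higher in 0 (median -2.02, or -1.92 with bounds). Igf2bp1, an RNA-binding protein that let-7 targets, had 4.45, 4.85 and 4.59 on the NS arrays, against 11.57, 11.56 and 11.47 on the ES arrays, at least 69.2-fold lower. Trim71, an RNA-binding ubiquitin ligase, was at least 49.4-fold lower, and Arid3a, a DNA-binding protein, was at least 13.2-fold lower. Igf2bp3 and Lin28b were 3.79-fold and at least 2.01-fold lower, and Dis3l2, the exonuclease that clears marked let-7 precursors, was not called (-0.25). Lin28a was at least 2.19-fold lower, from a dim signal in ES, and this call was lost with slide as a block (difference -1.34, limma adjusted p = 0.39). Germline and early embryo genes were lower in 12 of 14 tested cases and higher in 0 (median -3.34, or -2.47 with bounds, as 13 were detected in ES only), among them Xlr4a (at least 44.3-fold), Tex19.1 (at least 42.0-fold), Dppa3 (at least 35.6-fold) and Tdrd12 (at least 22.3-fold). Zscan4c, a marker of the rare ES cells that resemble the early cleavage embryo, was at least 6.18-fold lower, and Tcstv3, active in the same cells, at least 4.93-fold. The other members called lower were Rhox9 (at least 6.77-fold), Dazl (at least 3.19-fold), Taf7l (at least 2.99-fold), Mov10l1 (at least 2.28-fold) and Rhox6 (at least 1.48-fold), while Sohlh2 (-0.47) and Xlr5a (-1.31) were not called.

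Primed and formative genes did not move one way. Of 7 tested, 4 were lower (Dnmt3b, Otx2, Tcf15 and Cldn6), 2 higher (Pou3f1 and Sall2) and 1 was not called (Sfrp2, 0.37). Pou3f1, a POU class 3 factor, had 9.11, 9.12 and 9.23 on the NS arrays, against 6.47, 6.47 and 6.202 on the ES arrays (6.82-fold higher). Otx2, a head patterning factor, was 3.26-fold lower, a call that did not hold with slide as a block (difference -1.23). In the LIF pathway the receptor genes Lifr and Il6st differed by 0.12 and -0.04 and Stat3 by 0.83, none of them called. Its targets Socs3 and Pim3 were 13.1-fold and 5.94-fold lower, while the kinase gene Jak2 was 8.86-fold higher, at 10.25, 10.09 and 10.21 on the NS arrays, against 6.88, 7.002 and 7.23 on the ES arrays. The phosphatase gene Ptpn11 was 2.28-fold higher. Of the 10 tested members 2 were higher, 2 lower and 6 not called (median -0.06), Jak1 (-0.38), Stat5a (-0.90) and Lif (-0.07, at background in both lines) being the others not called. The called share of this LIF list was 40.0%, against 31.8% over all genes tested.

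Neural stem and radial glia genes were higher in NS. Of 36 listed, 29 were tested; 27 were called higher in NS, 0 lower and 2 were not called, with a median log2 difference of 3.53. Slc1a3, the glutamate transporter GLAST of radial glia, had 14.84, 14.76 and 14.94 on the NS arrays, against 6.24, 6.42 and 6.33 on the ES arrays (366-fold higher, 8.51 ± 0.069 SE, limma adjusted p = 4.8e-24). Sox9, the SoxE factor that starts gliogenesis, had 12.80, 12.84 and 12.77 on the NS arrays, against 5.16, 4.86 and 5.20 on the ES arrays. No ES array was above background, and the difference was 7.73 ± 0.075 SE (at least 167-fold higher, limma adjusted p = 7.3e-23). Rfx4, a winged-helix factor of the ventricular zone, had 12.16, 12.26 and 12.26 on the NS arrays, against 4.82, 4.60 and 4.65 on the ES arrays, at least 112-fold higher, although a second probe of Rfx4 missed the test (difference 1.33, adjusted p = 0.087).

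The nuclear factor I genes, which control the switch from neurons to glia, were called higher in NS by their brightest probes. Nfib had 12.31, 12.36 and 12.17 on the NS arrays, against 7.67, 7.78 and 7.82 on the ES arrays (22.9-fold higher). Nfix was 33.3-fold higher. Other probes were not called, 2 of Nfib (differences 1.37 and 1.29) and 1 of Nfix (0.21, at background in both lines). Nfia, at background in ES, was at least 19.2-fold higher. Sox11, a SoxC factor of early neurons and progenitors, had 12.48, 12.50 and 12.43 on the NS arrays, against 6.58, 6.67 and 6.92 on the ES arrays (53.6-fold higher), while Sox4 of the same group was at least 10.1-fold higher. Sox21, a repressor of SoxB targets, was bright in both lines, at 11.96, 12.06 and 12.001 in NS, against 9.82, 9.74 and 9.62 in ES (4.88-fold higher). The intermediate filament genes Nes and Vim were 20.3-fold and 11.6-fold higher. Zeb1, a repressor of epithelial genes, was 19.9-fold higher, the zinc finger gene Zbtb20 12.4-fold, the RNA-binding protein gene Qk 8.90-fold, and Hopx, a marker of outer radial glia in humans, 6.08-fold. Msi2, an RNA-binding protein, was 3.54-fold higher by 1 of 5 probes; the other 4 were not called, with differences of 0.14, 0.13, 1.04 and 0.65. Detected in NS only, Nr2e1, the orphan receptor TLX of the adult niche, was at least 5.41-fold higher, Pou3f3 at least 3.16-fold and Sox3 at least 2.62-fold.

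Proteoglycans and surface proteins of the neural stem cell matrix were detected in NS only. Ptprz1, a receptor phosphatase that binds pleiotrophin, was at least 75.1-fold higher, at 11.65, 11.63 and 11.65 on the NS arrays, against 4.52, 4.46 and 4.40 on the ES arrays. Tnc, the glycoprotein tenascin C, was at least 72.2-fold higher by 1 probe, while 4 other Tnc probes were not called. Bcan and Ncan, lecticans of brain matrix, were at least 48.9-fold and at least 15.1-fold higher, and the membrane protein gene Gpm6b at least 6.55-fold. Fabp7, a radial glia lipid binder, was at least 4.45-fold higher, but its call was lost without background correction (difference 1.15). Hes1 (0.47) and Pou3f4 (1.34) were not called; Hes1 was bright in both lines, at 9.90, 9.74 and 9.89 in NS, against 9.43, 9.36 and 9.32 in ES.

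Several glial lineage genes were higher in NS, while the markers of mature glia named above were not detected on all arrays of either line. Of 11 oligodendrocyte lineage genes tested, 7 were higher, 0 lower and 4 not called (median 1.73). Olig1, a basic helix-loop-helix factor of glial progenitors, had 14.64, 14.61 and 14.62 on the NS arrays, against 5.91, 5.53 and 6.11 on the ES arrays (438-fold higher, 8.77 ± 0.14 SE, limma adjusted p = 2.9e-20). Its partner Olig2 was at least 10.01-fold higher, Sox8 at least 16.8-fold, and Bcas1, a marker of young oligodendrocytes, was higher by 4.32 on the log2 scale. Pdgfra, the receptor of oligodendrocyte progenitors, was at least 4.46-fold higher, Cnp, a myelin enzyme, 3.32-fold and Nkx2-2 at least 1.95-fold, while Cspg4 was not called (1.32). Mbp, a myelin protein, Gpr17 and Sox6 were well above background on all 3 arrays of neither line. Of 15 astrocyte genes tested, 10 were higher, 1 lower and 4 not called (median 1.92, or 1.45 with bounds). Slc4a4, a bicarbonate transporter, was at least 26.3-fold higher, and Aldoc, a glycolytic enzyme of astrocytes, 8.34-fold. Cd44, a hyaluronan receptor, was at least 8.12-fold higher. Apoe, a lipid carrier, was the exception, with 6.95, 6.95 and 7.12 on the NS arrays, against 10.61, 10.70 and 10.70 on the ES arrays (12.7-fold lower).

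Neuronal genes were split. Of 28 listed, 10 were tested; 4 were higher in NS, 1 lower and 5 not called (median 1.11, or 0.69 with bounds). Map2, a dendritic microtubule protein, had 12.90, 12.96 and 12.70 on the NS arrays, against 7.76, 7.64 and 7.60 on the ES arrays (36.3-fold higher by its brightest probe; a second probe was not called). Gap43, a growth cone protein, was at least 44.5-fold higher, Syp, a synaptic vesicle protein, at least 6.36-fold, and Gad1, an enzyme of GABA synthesis, at least 3.03-fold. Stmn2, a tubulin-binding protein of neurons, was at background on the NS arrays (4.38, 4.53 and 4.52), against 10.35, 10.15 and 10.17 on the ES arrays (at least 27.9-fold lower). The 5 not called were Elavl4 (1.28), Syt1 (0.94), Elavl3 (-0.90), Slc32a1 (-0.92) and Ncam1 (0.68 by its brightest probe). Other probes of Ncam1 were called higher (5.12 and 1.89). Of the 5 neuron markers, Syp was detected on all 3 NS arrays and Stmn2 on all 3 ES arrays, and Snap25 and Tubb3 on no array of either line. Their sum was 300 to 306 in NS, against 1197 to 1376 in ES, and the part of neurons in these values was not tested.

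Few patterning genes passed the filter. Of 5 forebrain factors tested, Meis2 (11.3-fold), Otx1 (5.91-fold) and Dlx1 (at least 2.88-fold) were higher in NS, Otx2 was lower and Lhx2 was not called (1.22). Of 8 midbrain and hindbrain factors tested, Egr2, En1 and Irx5 were at least 3.54-fold, at least 3.16-fold and at least 3.08-fold higher, Irx2 was at least 4.07-fold lower and 4 were not called (Irx3 1.18, En2 0.58, Gbx2 0.54 and Irx1 0.20). Without background correction, Dlx1 and all 4 of those calls were lost. Of 18 Hox genes tested, 0 were higher, 3 lower and 15 not called, a called share of 16.7%, against 31.8% over all genes tested. Of the 18, 9 were at background in both lines. The 3 calls (Hoxa7, Hoxb7 and Hoxc6) came from dim ES signals with log2 means of 6.16, 6.22 and 6.08. All 3 were lost without background correction, Hoxa7 and Hoxc6 also with slide as a block.

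The receptors and feedback genes of EGF and FGF signalling were higher in NS. Of 15 tested, 12 were higher, 1 lower and 2 not called (median 2.94). Egfr, the EGF receptor, had 12.55, 12.52 and 12.58 on the NS arrays, against 5.09, 5.64 and 6.02 on the ES arrays, at least 118-fold higher with 2 of 3 ES arrays detected. Fgfr2 was 4.52-fold higher, and Fgfr1 and Fgfr3 were 2.91-fold and at least 2.28-fold higher from dim signals, the Fgfr1 call being lost with slide as a block (limma adjusted p = 0.078). Genes that ERK signalling induces stood higher as well. Dusp6, an ERK phosphatase, had 13.40, 13.41 and 13.33 on the NS arrays, against 7.23, 7.22 and 7.20 on the ES arrays (71.8-fold higher, 6.17 ± 0.066 SE). Etv4, an ETS factor, was 30.8-fold higher, its relative Etv1 at least 23.4-fold, Etv5 2.69-fold, the phosphatase gene Dusp4 at least 16.5-fold and the inhibitor gene Spry4 at least 10.3-fold. Fgf4, the ligand that ES cells make for themselves, was the member lower in NS (at least 5.83-fold).

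Of 16 Notch pathway genes tested, 8 were higher, 0 lower and 8 not called (median 1.27). Notch1, a receptor, had 10.43, 10.26 and 10.40 on the NS arrays, against 8.57, 8.60 and 8.63 on the ES arrays (difference 1.77 ± 0.087 SE). The coactivator gene Maml2 was at least 66.6-fold higher, Hes6 10.99-fold, and the targets Nrarp and Hey1 10.3-fold and 6.91-fold. Hes5 and the ligand gene Dll1 were at least 4.78-fold and at least 5.91-fold higher. Of 27 Wnt pathway genes tested, 12 were higher, 5 lower and 10 not called (median 1.203, or 0.42 with bounds). Among ligands, Wnt5a, Wnt7a and Wnt7b were at least 17.3-fold, at least 16.3-fold and 6.43-fold higher; among Frizzled receptors, Fzd9 and Fzd3 were at least 16.5-fold and at least 6.84-fold higher and Fzd5 4.60-fold lower. Sfrp1, a secreted antagonist, was at background on the NS arrays (4.68, 4.52 and 4.46), against 10.77, 11.03 and 10.93 on the ES arrays (at least 44.9-fold lower), and Dkk3 was at least 13.1-fold lower. The nuclear partners of beta-catenin went apart: Tcf7l2 was 4.81-fold higher and Tcf7l1, a repressor of pluripotency genes, 5.59-fold lower.

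Of 28 BMP and TGF-beta genes tested, 7 were higher, 8 lower and 13 not called (median 0.12). Tgfbr2, a TGF-beta receptor, had 11.05, 11.02 and 10.94 on the NS arrays, against 6.48, 6.15 and 6.35 on the ES arrays (25.6-fold higher), and the BMP receptor genes Bmpr1b and Bmpr2 were at least 7.05-fold and 4.73-fold higher. The BMP targets Id1, Id2 and Id3 were 8.02-fold, at least 6.79-fold and at least 30.8-fold higher, while the Nodal arm genes above made up 5 of the 8 lower members, with the activin receptor gene Acvr2b 4.03-fold lower.

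Adhesion genes divided by class. Of 20 epithelial adhesion and splicing genes tested, 0 were higher, 17 lower and 3 not called (median -2.74, or -1.78 with bounds), and 16 were detected in ES only. Of those not called, Dsg2, a desmosomal cadherin, had a second probe that was called lower (difference -5.52, adjusted p = 4.1e-21). Cdh1, E-cadherin, had 5.03, 5.30 and 4.85 on the NS arrays, against 11.08, 11.08 and 11.11 on the ES arrays (at least 50.9-fold lower). Spint1, a protease inhibitor, was at least 84.9-fold lower, the tight junction gene Cldn4 at least 61.8-fold, the keratin gene Krt8 at least 11.8-fold and the splicing factor gene Esrp1 at least 11.5-fold. Without background correction 8 members were called lower. Of 12 neural and mesenchymal adhesion genes tested, 6 were higher, 0 lower and 6 not called (median 1.73, or 1.04 with bounds). Cdh4, R-cadherin, had 12.51, 12.55 and 12.67 on the NS arrays, against 5.49, 4.82 and 4.86 on the ES arrays, at least 138-fold higher with 1 ES array detected. Astn1, a neuron-glia adhesion protein, was at least 58.8-fold higher, Cdh13 at least 12.9-fold, Nrcam at least 8.69-fold, the cadherin gene Celsr2 4.55-fold and Cdh20 at least 2.53-fold. Chl1 (1.27), Ncam2 (0.73), Alcam (0.44), Cdh6 (0.42) and Cadm1 (0.37) were not called. Ncam1 was not called by its brightest probe (0.68), while 2 other probes of it were called higher (5.12 and 1.89).

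Fibroblast and mesenchyme genes showed no common direction: of 31 tested, 5 were higher, 5 lower and 21 not called (median 0.01), and 13 were at background in both lines. Fbln2, a matrix glycoprotein, was at least 142-fold higher by 1 probe (a second was at background in both lines), Acta2, smooth muscle actin, 14.4-fold, the collagen gene Col6a1 at least 8.201-fold and Sparc 2.72-fold. Fn1, fibronectin, was 7.79-fold lower, Timp1 5.86-fold, Ccn2 at least 18.2-fold, the protease gene Mmp2 at least 7.11-fold and Thy1 at least 4.41-fold. The part of fibroblasts in these values was not tested, and their marker sums stand above. The called share of the fibroblast and mesenchyme list was 32.3%, against 31.8% over all genes tested. Of 6 endothelial genes tested, Pecam1, Vwf, Tek and Eng were at least 11.5-fold, at least 8.71-fold, at least 5.20-fold and at least 4.74-fold lower in NS and Emcn was at least 2.02-fold higher, with Flt1 not called (-0.46); Cdh5 and Cldn5, markers of endothelium, were on no array of either line well above background, and with Tek they summed to 29 to 36 in NS, against 222 to 245 in ES. The part of endothelial cells was not tested. Of 5 endoderm, mesoderm and trophoblast genes tested, Tfap2c, Gsc and Gata6 were at least 128-fold, at least 6.59-fold and at least 1.73-fold lower and Dab2 was 5.26-fold higher, Bmp4 was not called (-1.12), and the trophoblast markers Cdx2, Elf5 and Hand1 were on no array well above background. The primitive endoderm markers Gata4, Gata6, Sox17 and Sox7 summed to 31 to 38 in NS, against 85 to 122 in ES, and their part was not tested.

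Of 8 DNA methylation genes tested, 0 were higher, 4 lower and 4 not called (median -1.83, or -1.66 with bounds). Dnmt3b, a de novo methyltransferase, had 7.25, 7.12 and 6.98 on the NS arrays, against 11.15, 11.02 and 11.04 on the ES arrays (15.5-fold lower). Dnmt3l, its cofactor, was at least 16.7-fold lower, Tet1, which oxidises methylcytosine, 14.7-fold, and Mbd2 at least 6.85-fold. The maintenance enzyme Dnmt1 (-0.11) and its partner Uhrf1 (-0.55) were not called, nor were Mbd3 (0.88) and Tdg (0.27).

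Of 22 Polycomb and related regulators tested, 3 were higher, 4 lower and 15 not called (median -0.53, or -0.47 with bounds), a called share of 31.8%, as over all genes tested. Cbx7, the chromobox protein that reads H3K27 methylation in ES cells, had 5.55, 5.90 and 5.82 on the NS arrays, against 10.51, 10.50 and 10.49 on the ES arrays (26.8-fold lower, -4.74 ± 0.18 SE). Of the Polyhomeotic pair, Phc1 was 4.95-fold lower and Phc2 7.34-fold higher, with no overlap between the lines in either. Bmi1, a ring finger subunit at background in ES, was at least 9.06-fold higher. The PRC2 core genes Ezh2 (-0.68) and Suz12 (-0.93) were not called, while Eed was 3.75-fold lower by 1 of 2 probes and the accessory gene Mtf2 8.78-fold. Cbx8 was 2.62-fold higher, a call that was lost with slide as a block (limma adjusted p = 0.59) and without ES replicate 1, ES replicate 3 or NS replicate 3.

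Of 22 BAF subunit genes tested, 5 were higher, 1 lower and 16 not called (median 0.17), a called share of 27.3%, against 31.8% over all genes tested. Smarca2, one of the alternative ATPases, had 11.18, 11.25 and 11.17 on the NS arrays, against 6.65, 6.44 and 6.73 on the ES arrays (24.1-fold higher by its brightest probe; a second differed by 1.19 and was not called). The other ATPase gene, Smarca4, had 8.75, 8.69 and 8.74 on the NS arrays, against 8.59, 8.66 and 8.51 on the ES arrays, and was not called (95% interval -0.01 to 0.29). Smarcc2 was 3.80-fold higher, while its paralogue Smarcc1, a mark of the ES cell complex, was not called (-0.18). Smarcd3 was 3.67-fold higher and Smarcd2 was 3.90-fold lower, so these alternative subunits went opposite ways. Smarce1 was 3.61-fold higher, and the neural subunit gene Dpf3 at least 2.06-fold; without background correction 3 members were called higher.

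**Figure D3:**
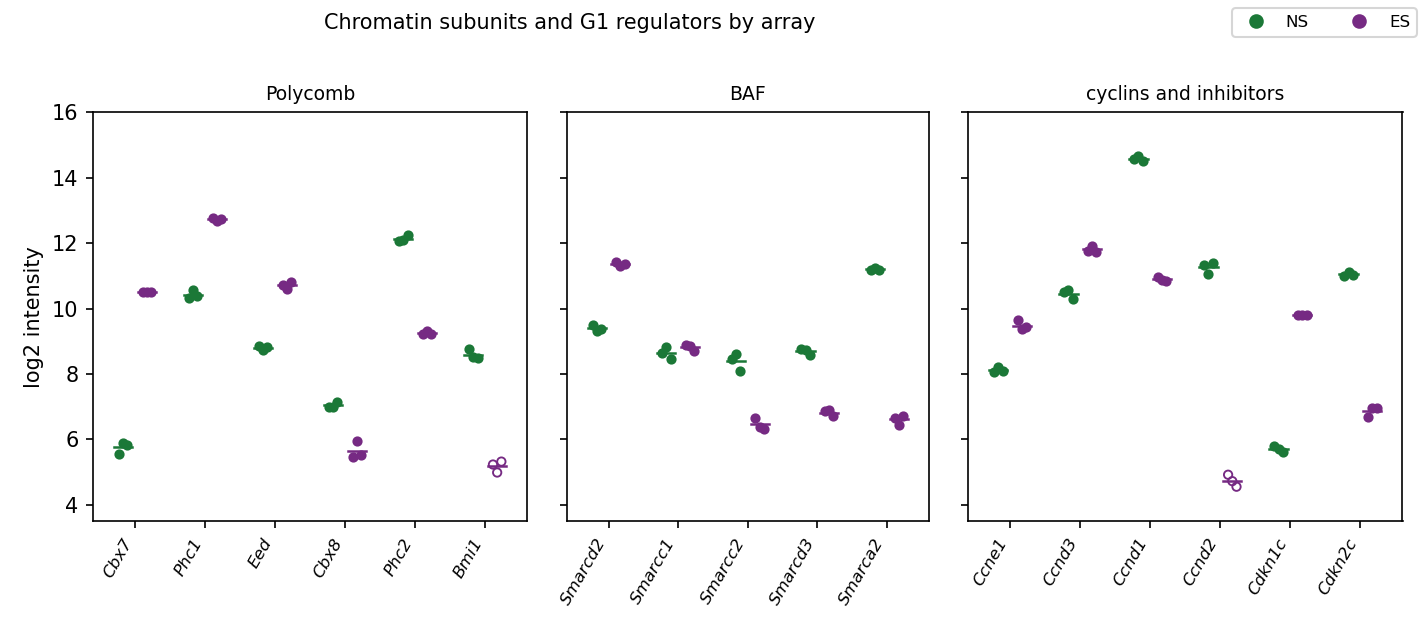
Log2 intensity of Polycomb subunits, BAF subunits and G1 regulators on each NS array (green) and ES array (purple), with bars at the means and open points for lines not detected on all 3 arrays. Cbx7, Phc1, Smarcd2 and Cdkn1c are lower in NS, Phc2, Smarca2, Ccnd1 and Cdkn2c are higher, and Smarcc1 overlaps.

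No mitosis gene passed the 2-fold test, against a called share of 31.8% over all genes tested. Of 14 tested, limma treat called 0 in either direction and gave 0 an unadjusted p under 0.05, while with no change as the null 4 were called higher and 6 lower. Their median was -0.09, with Plk1 (-0.86) the lowest and Ccna2 (1.03) the highest. Cdk1, the mitotic kinase, had 11.76, 11.80 and 11.99 on the NS arrays, against 11.67, 11.69 and 11.81 on the ES arrays, and the lines overlapped. Aurka (-0.45), Aurkb (0.40), Bub1b (-0.22), Cdc20 (-0.37), Top2a (0.04), Kif11 (0.27), Kif23 (0.73), Cenpa (0.10), Nusap1 (-0.28), Tpx2 (-0.29) and Birc5 (-0.46) were not called. Of 20 DNA replication genes tested, 0 were higher, 3 lower and 17 not called (median -0.51), the 3 being Orc1 (6.37-fold), the licensing factor gene Cdt1 (3.25-fold) and Mcm5 (2.22-fold, lost with slide as a block). These counts rest on the brightest probes. A second probe of Mcm6 was called higher (4.42, limma adjusted p = 5.95e-12), while its brightest was not called (-0.56). Another probe of Rrm1 was also called higher (1.16, limma adjusted p = 0.04), while its brightest was not called (0.70).

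Genes that set entry into S phase were called in both directions. Of 22 G1 cyclins, inhibitors and p53 targets tested, 8 were higher, 5 lower and 9 not called (median 0.49). Ccnd1, cyclin D1, had 14.57, 14.65 and 14.51 on the NS arrays, against 10.96, 10.86 and 10.85 on the ES arrays (12.9-fold higher, 3.69 ± 0.067 SE, limma adjusted p = 5.7e-18). Ccnd2 was detected in NS only, at 11.33, 11.07 and 11.41, against 4.92, 4.72 and 4.55 in ES (at least 57.8-fold higher), and Ccnd3 was 2.56-fold lower. Ccne2 was 2.68-fold higher and Ccne1 2.55-fold lower, though the Ccne1 call was lost with slide as a block (limma adjusted p = 0.30). Among CDK inhibitors, Cdkn1c had 5.81, 5.69 and 5.62 on the NS arrays, against 9.80, 9.80 and 9.81 on the ES arrays (17.1-fold lower), while Cdkn2c had 11.005, 11.10 and 11.02 on the NS arrays, against 6.68, 6.95 and 6.96 on the ES arrays (18.1-fold higher). Cdkn2b was at least 5.80-fold higher and Cdkn2d 3.68-fold, and Cdkn1a (-0.24) and Cdkn2a (-0.81) were not called. Of the p53 targets, Bbc3 and Mdm2 were 4.75-fold and 2.45-fold lower, while 2 other Bbc3 probes were not called (-0.72 and -0.95). Ccng1 was not called by its brightest probe (0.16), but 2 other probes of it were called lower (-1.84 and -1.93), and Trp53inp1, likewise not called (-1.06), had another probe called lower (-1.61).

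The largest single differences also took in genes outside these groups. Ptn, the growth factor pleiotrophin that binds Ptprz1, had 14.53, 14.63 and 14.57 on the NS arrays, against 4.44, 4.47 and 4.50 on the ES arrays (at least 573-fold higher, 10.11 ± 0.05 SE, limma adjusted p = 1.7e-27). Mdk, midkine, the other member of that family, went the other way, with 5.66, 6.04 and 6.02 on the NS arrays, against 12.12, 12.31 and 12.27 on the ES arrays (80.2-fold lower). Ednrb, the endothelin B receptor of glia, was at least 203-fold higher, with no ES array detected. Slc25a18, a mitochondrial glutamate carrier, was at least 148-fold higher, Plat, tissue plasminogen activator, at least 125-fold, the potassium channel gene Kcnc1 at least 117-fold, Cd93 at least 104.5-fold, Car3, a carbonic anhydrase, at least 87.5-fold and Tmem176b at least 81.4-fold.

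Among genes measured on all 6 arrays, Igfbp3, which binds insulin-like growth factors, had 12.64, 12.69 and 12.63 on the NS arrays, against 6.08, 6.27 and 6.11 on the ES arrays (90.6-fold higher). The sulfotransferase gene Chst7 was 90.3-fold higher, the syndecan gene Sdc3 68.1-fold, Fam171b 64.6-fold, 2510009E07Rik 56.9-fold and the pseudokinase gene Trib2 52.9-fold. On the other side Chchd10, a mitochondrial protein, had 6.93, 6.26 and 6.94 on the NS arrays, against 14.44, 14.40 and 14.50 on the ES arrays (213-fold lower). Epop, a PRC2-associated protein, was 64.0-fold lower, the amino acid transporter gene Slc7a3 41.9-fold, the desmosome gene Pkp2 40.4-fold and the stress gene Nupr1 39.7-fold. Detected in ES only were Laptm5, a lysosomal protein of blood cells (at least 201-fold lower), and Rps4l, a ribosomal protein paralogue (at least 118-fold). Of the other myeloid and lymphoid genes tested, Lyz2 (0.06) and Cd14 (0.86) were not called. Some of these were also bright in the fibroblast line of the series, MEF, where Ptn had a mean log2 intensity of 12.04, Plat of 12.09, Tmem176b of 12.90 and Nupr1 of 13.31.

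Many genes of neural signalling and transport were higher in NS. Of 18 ion channel and transmitter receptor genes tested, 13 were higher, 2 lower and 3 not called (median 2.10, or 1.19 with bounds), and all 13 were detected in NS only. Grm5, a metabotropic glutamate receptor, had 10.61, 10.51 and 10.60 on the NS arrays, against 4.40, 4.40 and 4.45 on the ES arrays (at least 35.8-fold higher). The AMPA receptor genes Gria2 and Gria3 were at least 29.1-fold and at least 11.5-fold higher, and Cacng5 at least 27.7-fold, while Lpar1 and Kcnk1 were at least 3.39-fold and 2.64-fold lower. Without background correction 6 members were called higher and 0 lower. Of 24 axon guidance genes tested, 11 were higher, 2 lower and 11 not called (median 0.96, or 0.61 with bounds). The semaphorin genes Sema6d, Sema3a and Sema5a were at least 20.7-fold, at least 7.14-fold and at least 5.39-fold higher and the receptor genes Nrp1 and Epha5 at least 10.3-fold and at least 6.67-fold, while Slit2 was at least 5.82-fold lower by 1 of 3 probes and Epha2 at least 2.75-fold. Of 15 lipid and transport genes common in neural stem cell culture, 11 were higher, 2 lower and 2 not called (median 3.53, or 3.06 with bounds). Mt3, the brain metallothionein, had 11.68, 11.67 and 11.68 on the NS arrays, against 6.53, 6.77 and 6.399 on the ES arrays (34.6-fold higher), Mt2 was 19.4-fold lower and Mt1 was not called (-0.72). The GABA transporter gene Slc6a11 and the cystine transporter gene Slc7a11 were at least 24.0-fold and at least 12.1-fold higher, the acyl-CoA synthetase gene Acsbg1 at least 41.6-fold and Gpm6a at least 31.3-fold.

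**Figure D4:**
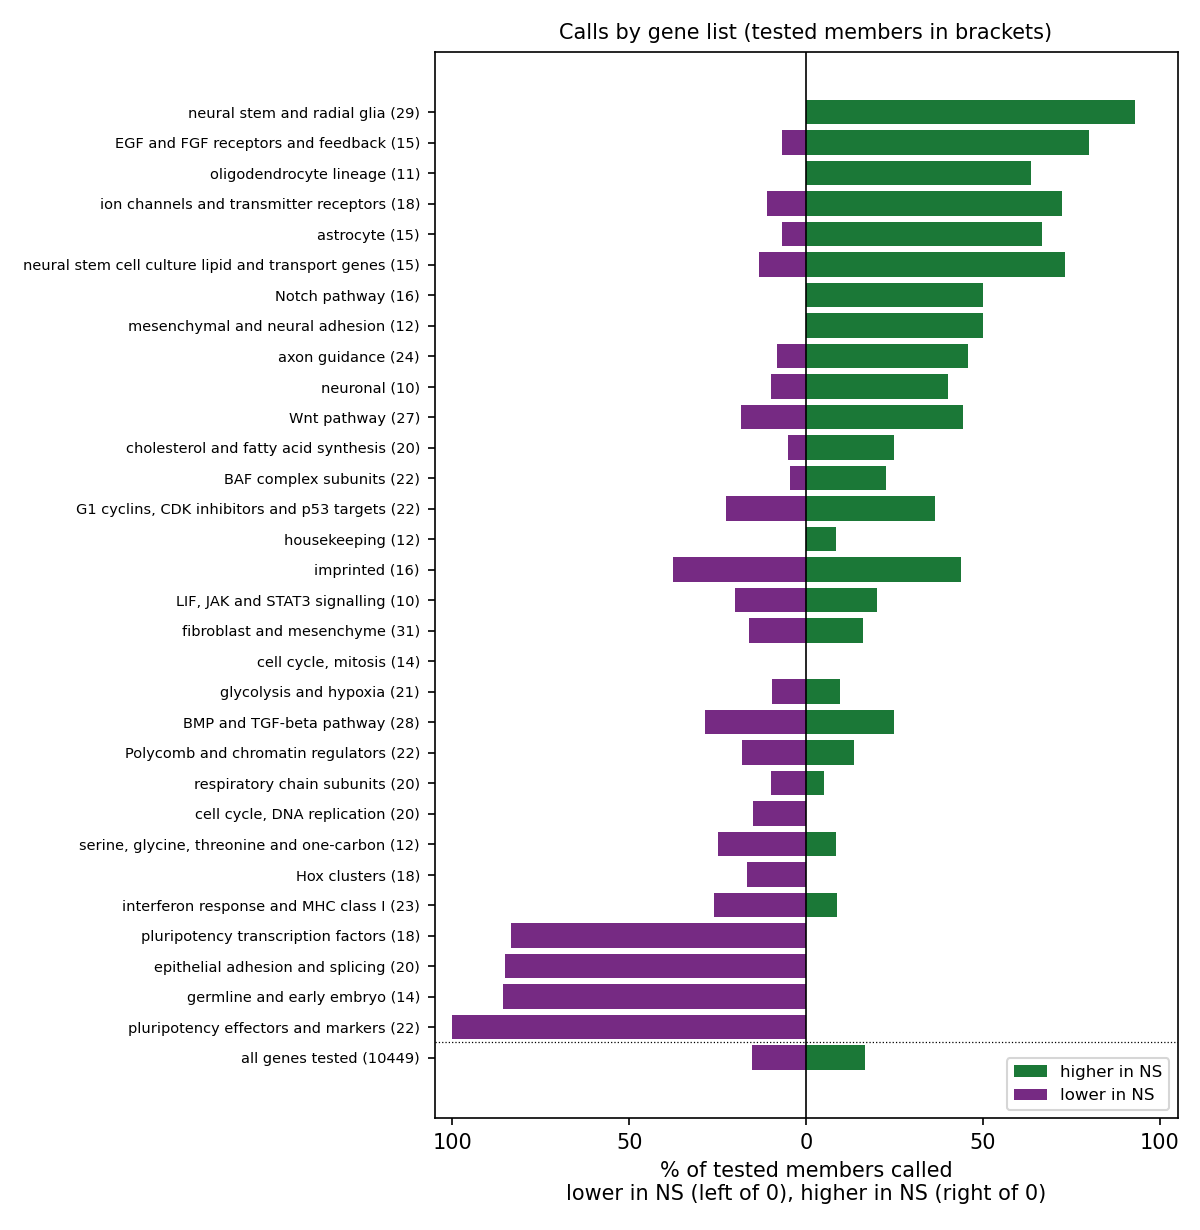
Share of the tested members of each gene list called higher in NS (green, right of 0) or lower in NS (purple, left of 0), in %, for lists with 10 or more tested members, with all genes tested at the bottom (16.6% higher, 15.2% lower). Neural stem, EGF and FGF and glial lists lie at the top, pluripotency, germline and epithelial lists at the bottom, and mitosis genes have no call.

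The calls above rest on the brightest probe of each gene. Beside the genes for which this has been said, another probe was not called for Acta2, Aldoc, Bmpr2, Ccnd3, Cd44, Cnp, Dab2, Dpf3, Dusp4, En1, Fgfr2, Fgfr3, Gad1, Gria3, Hoxb7, Id2, Lin28a, Nkx2-2, Nrcam, Nrp1, Sox3, Sparc, Tcf7l2, Tgfbr2 and Wnt5a.

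The slide on which an array lay could not be separated from the line within the contrast. A slide term was fitted for every gene, and between the NS and ES slides it rested on iNS5 alone, with only array iNS5_1 on the NS slide. The term moved the difference between NS and ES by a median of 0.091 on the log2 scale and by 0.371 at the 95th percentile. Of the 3319 genes called, 0 moved by more than 1. The differences of Nanog, Sox2 and Olig1 with that term were -8.13, 0.18 and 8.93.

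**Figure D5:**
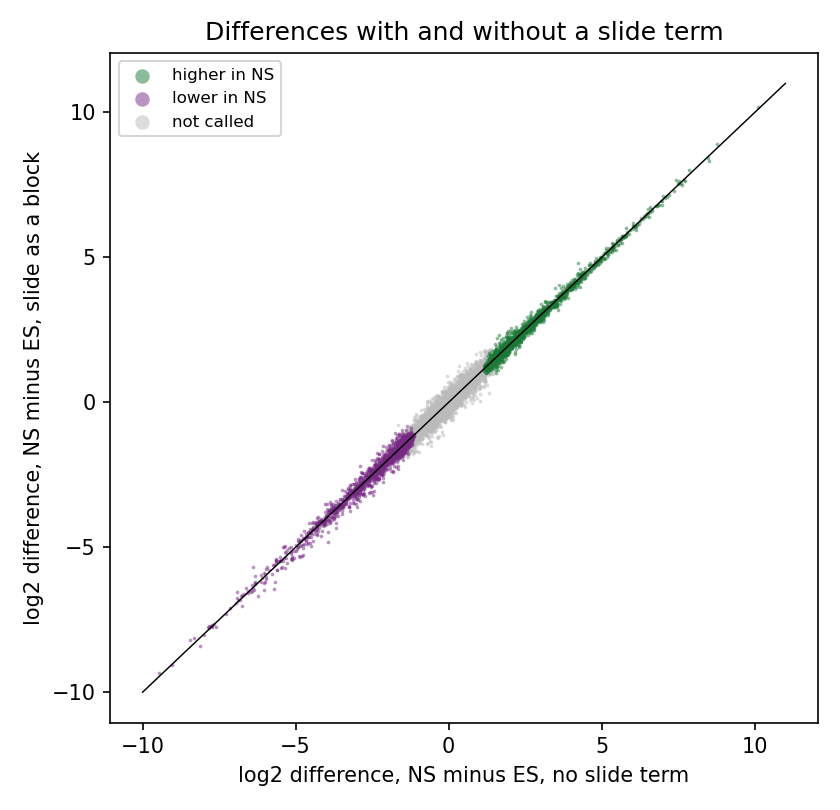
Log2 difference between NS and ES of each gene without a slide term (x axis) and with slide as a block (y axis), coloured by the call without it; the line marks equal values. Points lie close to the line over the whole range, and the genes called higher or lower stay on their side of 0.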

How the data were processed

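The deposited scanner table holds, per the file headers, the mean bead intensity of each probe on each array with background included, a detection p-value, the bead count and its standard error; each probe had a median of 41 to 44 beads. The authors also deposited a table of intensities that were background-subtracted and scaled to 1 mean, as found from the values. The submitters' processing notes name GenomeStudio. Its version is not given in the sources used here. Total RNA was labelled with biotin, per the labels. Between 15229 and 15578 of 45281 probes were detected in NS, and 15071 to 15796 in ES; 34885 probes had 1 symbol in the platform annotation, updated by gene identifier to RefSeq (34807 matched).

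Scanner intensities were normalised with neqc (offset 16, quantile) and put on the log2 scale in limma 3.58.1 under R 4.3.3. The brightest probe stood for its gene (15972 probes, 10449 genes). One fit of 21 arrays and 6 groups with 15 residual degrees of freedom gave the contrast NS minus ES, tested with treat against 2-fold and adjusted (Benjamini-Hochberg) over all genes tested. The fit was tested on simulated data. The comparison, its members and the 41 gene lists were chosen with earlier results of these data known, so lists carry counts and medians, and no test. Genes were named by fixed rules: the 10 largest differences in each direction among genes detected on all arrays, the 10 largest bounds in each direction, the 4 largest called in each direction of each list, and all of the pluripotency, neural stem and small lists, with unnamed housekeeping and one-carbon members given as ranges. Other members were named after their values were seen. Alternatives covered background, scaling, filter, probe choice, null, slide and each array left out. Figures used matplotlib 3.10.9 under Python 3.11.15.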

Additional observations from a re-analysis of the deposited data

How the results depend on the processing

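The numbers of calls moved by more than 1.5 times under 2 settings. Without background correction 1914 genes were called (1047 higher in NS, 867 lower), and with no change in place of 2-fold as the null 8437 (4112 and 4325). Leaving out 1 array at a time gave 3225 to 3247 calls, 1688 to 1710 higher and 1530 to 1548 lower. The other settings gave 2717 (offset of 50) to 3373 calls (the authors' scaled table), and under no setting run was a called gene called the other way. Scaling to the median moved the median of all genes to -0.094 and gave 1634 higher and 1648 lower calls. Slide as a random block gave 3295 calls, and slides 3 and 4 alone with slide as a block 2793 with 6 residual degrees of freedom. Of 1260 called genes with several probes, 8 had another probe called the opposite way (Adap1, Fbxo31, Gstcd, Jam2, Pdxdc1, Ralgps2, Smim13 and Tsr1). No paired analysis was possible because the labels number no replicates and the arrays are technical repeats. Each line was taken as 1 culture, so differences between cultures, strains or sexes of the source cannot be told from those of cell type. Dim probes limit precision: 550 tested genes were at background in both lines.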

Other observations

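The called shares of the housekeeping, respiratory chain, and glycolysis and hypoxia lists were below the 31.8% over all genes tested. Those of the serine and one-carbon list and of the cholesterol and fatty acid list were near it. Of 12 housekeeping genes tested, 1 was higher in NS, B2m, the light chain of MHC class I (4.05-fold), and 11 were not called, with differences that ran between -1.01 (Hprt) and 0.65 (Pgk1) by their brightest probes; a second Hprt probe was called lower (-1.76, limma adjusted p = 0.00046). Of 20 genes tested in the respiratory chain list, which also holds coactivator genes, 1 was higher, 2 lower and 17 not called. The coactivator genes were split, with Ppargc1a at least 5.95-fold higher and Ppargc1b at least 3.05-fold lower, and Cox7a1, a muscle-type cytochrome oxidase subunit, had 6.80, 6.92 and 6.88 on the NS arrays, against 9.57, 9.58 and 9.52 on the ES arrays (6.47-fold lower). Of 21 glycolysis and hypoxia genes tested, 2 were higher (Aldoc and P4ha1), 2 lower (Slc2a3 and Pfkp) and 17 not called. Pfkm, not called by its brightest probe (1.11), had another probe called higher (1.24, limma adjusted p = 0.026). Of 12 serine and one-carbon genes tested, 1 was higher (Aldh1l2, 3.86-fold) and 3 lower (Asns 4.203-fold, Gcat 3.78-fold and Mthfd1 2.45-fold); a second probe of Mthfd1 differed by 1.03 the other way and was not called. The 8 not called ran between -0.82 (Shmt1) and 0.10 (Phgdh) by their brightest probes; a second Shmt1 probe was called lower (-1.47, limma adjusted p = 0.0013). Of 20 cholesterol and fatty acid genes tested, 5 were higher and 1 lower, with the desaturase genes Fads2, Scd2 and Fads1 5.06-fold, 4.84-fold and 2.94-fold higher, Srebf1 and Mvk at least 4.36-fold and 3.36-fold higher and Mvd 2.70-fold lower.

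Imprinted genes were called in both directions: of 16 tested, 7 were higher in NS, 6 lower and 3 not called. Mest had 12.02, 12.39 and 12.21 on the NS arrays, against 8.68, 9.11 and 8.84 on the ES arrays (10.03-fold higher), Nnat and Nap1l5 were at least 12.8-fold and at least 10.3-fold higher and Gnas 5.06-fold. Grb10 was at least 82.4-fold lower by 1 of 2 probes, Phlda2 at least 57.8-fold and Igf2, a growth factor, at least 26.2-fold. Of 23 interferon response and MHC class I genes tested, 2 were higher, 6 lower and 15 not called, and the lower ones were led by Ifitm3, with 6.19, 5.78 and 6.26 on the NS arrays, against 12.89, 13.02 and 12.95 on the ES arrays (117-fold lower), Ifitm1 (24.2-fold), Bst2 (at least 13.3-fold) and Ifitm2 (4.34-fold); Ifit2 was at least 2.03-fold higher. Ifitm3 was also bright in MEF (mean log2 14.83). The called share of the interferon and MHC class I list was 34.8%, against 31.8% over all genes tested. Of 6 ependymal and choroid plexus genes tested, 1 was higher (Dynlrb2, at least 3.63-fold), 3 lower (Folr1, Otx2 and Rsph1) and 2 not called (Clic6 -0.93 and Foxj1 0.47). Of the sex-linked genes, Xist, the RNA of the inactive X chromosome, had 10.71, 10.85 and 10.78 on the NS arrays, against 4.45, 4.66 and 4.58 on the ES arrays (at least 41.3-fold higher), and Eif2s3y, on the Y chromosome, had 6.08, 6.06 and 6.14 on the NS arrays, against 10.93, 10.86 and 10.999 on the ES arrays (28.6-fold lower); Kdm5d and Uty were not called. The sex of the source of the lines moves with every other difference between them and cannot be told apart from them. A second probe was not called for Pfkp, Gnas or Ifitm1.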
